A study of Bos taurus with 30 samples.

Results

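The miRNAs described here are the mature products of 4 neighbouring X-linked miRNA genes, measured in the testes of bull calves. They are bta-miR-421, bta-miR-374a, bta-miR-374b and both arms of miR-545 (bta-miR-545-5p and bta-miR-545-3p), written without the species prefix from here on, and they are 5 of the 1030 bovine miRNAs in the deposited table. They were chosen by name. The set was proposed with the diet contrast and the covariation of these libraries in view, so levels, diet differences and correlations of the 5 miRNAs are given as a description and not as tests.

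miRNAs are short RNAs cut from hairpin precursors, and they repress mRNAs to which they pair. A hairpin can give a mature miRNA from its 5′ arm (5p), its 3′ arm (3p) or both. In human and mouse the 4 hairpins lie in introns of FTX, a long noncoding RNA gene of the X inactivation centre near XIST, in 2 pairs: miR-374a with miR-545, and miR-374b with miR-421. miR-374a and miR-374b share a seed, the stretch of an miRNA that guides target pairing.

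All calves were Holstein-Friesian bulls, fed 1 of 2 diets from 2 to 12 weeks of age, when the testes were collected. Calves on the High plane of nutrition (15 calves) drank 10 L of milk replacer holding 1.5 kg each day, had concentrates ad libitum and were to gain 1.0 kg per day. Calves on the Moderate plane (15 calves) drank 4 L holding 0.5 kg, were given 0.5 kg of concentrates and were to gain 0.5 kg per day. Total RNA of testis tissue gave 1 small RNA library per calf. In such bulk samples fewer cells of a type and less RNA per cell cannot be told apart.

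Diet is taken from the diet characteristic of each label, but the sample titles name the other diet for 18 of the 30 libraries (9 High, 9 Moderate), while the ending of the sample code (H or L) goes with the characteristic in all 30. Moderate replicate 5 stood apart: miR-10b made up 84.8% of the reads there and 37.0% to 49.0% in each of the 29 remaining libraries, so values are given with and without it. Depth was 6.0003 to 19.98 M reads, with 24 libraries (11 High, 13 Moderate) under 12 M reads. The gonadal miRNA miR-202 lay between 1055 (Moderate replicate 5) and 3282, and of 4 striated muscle miRNAs miR-1 and miR-206 were listed at 0 in every library. The other 2, miR-133a and miR-499, summed to 14.4 to 22.2 under High and 3.33 to 21.4 under Moderate, and 0 of the 2 passed the diet test in 30 libraries and 1 without Moderate replicate 5. The sum of miR-143 and miR-145, smooth muscle markers, had a median of 113085 under High and 119760 under Moderate. The 5 leukocyte rows (miR-142, miR-150, miR-155 and miR-223) had summed medians of 2142 and 2111.

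By RefSeq's annotation of ARS-UCD2.0 all 5 miRNAs had a gene on the X chromosome. The gene order was ZCCHC13, MIR374A, MIR545, MIR374B, MIR421, the pseudogene LOC112445193 and XIST. All 4 miRNA genes lay inside 1 annotated long noncoding RNA gene, LOC104970537. The table also places MIR374C wholly within MIR374A. Its product miR-374c had 0 to 4 reads per library, with 35 reads over the 30 libraries, and was not tested.

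The 5 miRNAs differed widely in level and kept 1 order in all 30 libraries: miR-421, miR-374a, miR-374b, miR-545-5p and miR-545-3p, from high to low. Values are the deposited values, counts per M reads (CPM) after TMM scaling, which adjusts each library's size so that most miRNAs keep their level. Over the 29 libraries without Moderate replicate 5, miR-421 stood at 166 ± 26.7 (SD, n = 29), miR-374a at 88.8 ± 7.80 and miR-374b at 52.0 ± 4.68. miR-545-5p stood at 7.70 ± 1.91 and miR-545-3p at 1.70 ± 0.524. By mean level over 30 libraries they took places from 107 (miR-421) to 352 (miR-545-3p) among the 387 miRNAs tested, those that reached a value of 1 in 15 or more libraries. Together the 5 took 334 ± 51.8 reads per M reads in the 29 libraries and 90.6 in Moderate replicate 5.

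The 3 abundant members rested on many more reads per library than the miR-545 arms. Outside Moderate replicate 5, miR-421 had 998 to 3654 reads, miR-374a 524 to 2087 and miR-374b 313 to 1161. miR-545-5p had 45 to 180 and miR-545-3p 5 to 49. Counting error alone would account for 77.9% of the variance of log2 miR-545-3p within diets and for 31.8% of that of miR-545-5p. For miR-374b this share was 25.4%, for miR-374a 24.2% and for miR-421 3.26%. These shares cover counting error only, with no error of library preparation. The spread of miR-545-3p was mostly of the size that its depth gives.

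miR-421, reported in human cells to repress the DNA damage kinase ATM, ranged under High from 153 through a median of 168 to 215. Under Moderate it ranged from 114 through 159 to 203. The diets overlapped: 4 High libraries lay above all Moderate ones and 7 Moderate libraries below all High ones. The High mean was 179 ± 23.2 and the Moderate mean 154 ± 23.5 (n = 15 each), a log2 difference of 0.22 (95% confidence interval 0.07 to 0.38) on the log2(value + 0.5) scale, High minus Moderate. Moderate replicate 5, at 172, lay within the range of the others after TMM scaling, and without it the difference was 0.24 (0.08 to 0.39). Relative to its total that library had 40.8 reads per M reads, below the 156 ± 22.8 of the other 14 Moderate libraries. Of the High libraries 10 stood at 178 or less, and the other 5 lay above every Moderate library except replicate 9, the highest of its diet at 203.

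miR-374a, reported to repress WIF1 and other antagonists of Wnt signalling in human breast cancer cells, ranged under High from 78.5 through 92.9 to 109. Under Moderate it ranged from 73.2 through 85.2 to 158. The value of 158 belonged to Moderate replicate 5, and the next Moderate library stood at 92.1. With that library 0 High libraries lay above all Moderate ones, and without it 8 of 15 did. The means were 93.4 ± 6.60 under High and 88.8 ± 19.9 under Moderate (83.9 ± 5.74 without replicate 5, n = 14). The log2 difference was accordingly 0.09 (-0.06 to 0.24) in 30 libraries and 0.15 (0.07 to 0.24) in 29. In Moderate replicate 5 the 158 units stood for 332 reads, or 37.4 reads per M reads of its total, below the 86.2 ± 9.87 reads per M reads of the other 14 Moderate libraries. The direction in which this library departs for miR-374a therefore depends on the scaling.

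miR-374b had the smallest log2 difference of the 5 in limma on the 30 and on the 29 libraries, but not in edgeR (0.040, against 0.031 for miR-374a), in DESeq2 (0.072 against 0.062) or in the 12 libraries with the same diet in both labels (0.083 against 0.030). It ranged under High from 46.6 through 53.4 to 62.7 and under Moderate from 40.7 through 51.4 to 58.1. The means were 53.2 ± 4.79 and 50.7 ± 4.20, with 9 of 15 High libraries above the Moderate median. The log2 difference was 0.07 (-0.04 to 0.18) in 30 libraries and 0.07 (-0.04 to 0.17) in 29, so that the interval reached to either side of 0 and its upper end was 0.18.

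The 5p arm of miR-545, a precursor whose products have been reported to repress cyclin D1 and CDK4 in human lung cancer cells, ranged under High from 5.27 through 8.38 to 13.01. Under Moderate it ranged from 1.90 through 6.16 to 9.05, the 1.90 (4 reads) being Moderate replicate 5. Of the 15 High libraries 4 lay above all Moderate ones and 13 above the Moderate median. The means were 8.58 ± 2.00 and 6.44 ± 1.76, and the log2 difference was 0.42 (0.12 to 0.71). Without Moderate replicate 5 the Moderate mean was 6.76 ± 1.29 and the difference 0.31 (0.09 to 0.53).

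The 3p arm ranged under High from 0.932 through 1.95 to 2.92 and under Moderate from 0 through 1.47 to 2.10. It was listed at 0 in Moderate replicate 5, where a count of 0 allows up to 3 reads or 1.43 units, so the library does not show the arm to be absent. That limit covers counting error only. The means were 1.92 ± 0.552 and 1.37 ± 0.535, with a log2 difference of 0.41 (0.07 to 0.76) in 30 libraries and 0.28 (0.04 to 0.53) in 29. A value of at least 1 was reached in 14 High and 12 Moderate libraries, 26 of 30 in all, and the arm passed the filter on the libraries of both diets together.

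**Figure D1:**
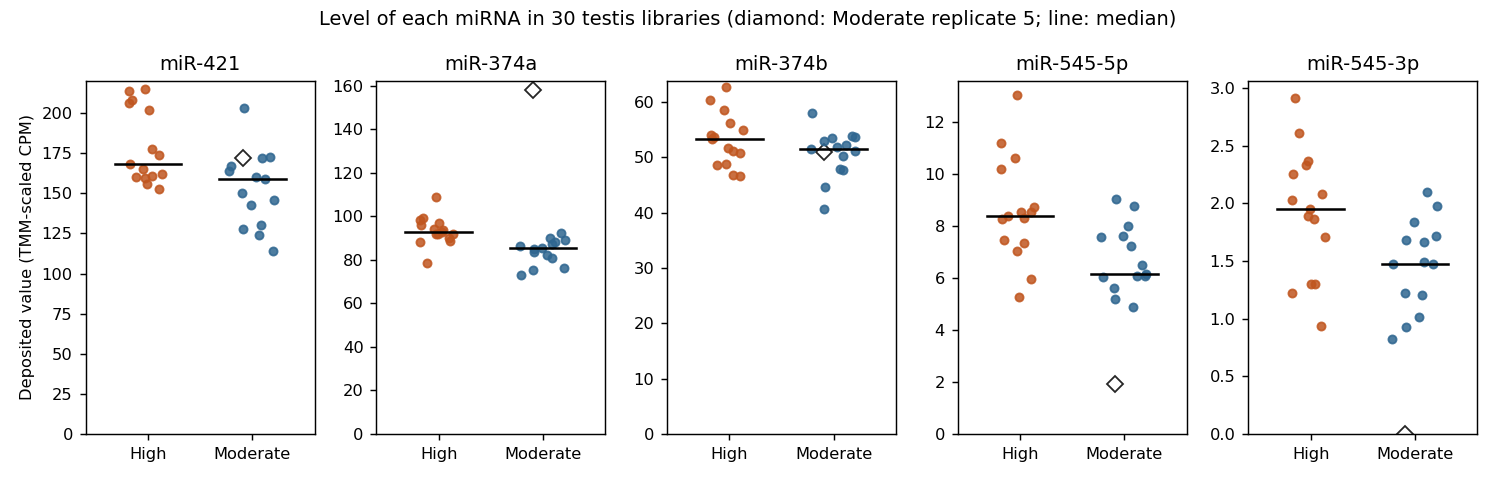
Deposited value (TMM-scaled CPM, linear axis from 0) of each miRNA in the 15 High and 15 Moderate libraries, 1 point per calf, with the median of each diet as a line and Moderate replicate 5 as an open diamond. The diets overlap in every panel, and the diamond is the highest point for miR-374a (158) and the lowest for both arms of miR-545 (1.90 and 0).

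Across all 387 miRNAs tested with limma, 19 passed an adjusted p of 0.05 (4.91% called), and 0 of the 5 members was among them. Without Moderate replicate 5, 45 of 385 passed (11.7% called), and 2 of the 5 members, miR-421 and miR-374a, were among them. The same contrast was in view when the set was proposed, so nothing is read from these counts. Before adjustment 82 miRNAs had a p under 0.05 in the 30 libraries and 115 in the 29. Other call rules gave other shares: edgeR called 9.52% with 0 members, DESeq2 11.6% and limma with upper-quartile scaling 5.41%, each with miR-545-5p among the calls. Without Moderate replicate 5, edgeR called 12.6% and limma on library totals 7.97%, each with miR-421, miR-374a and miR-545-5p among them. The median log2 difference of the 5 was 0.22 in 30 libraries and 0.24 in 29, and all 5 were above 0, while the median over all tested miRNAs was 0.03 and 0.00, with 56.3% and 50.9% above 0.

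The differences depended on the diet label used. In the 12 libraries whose title and characteristic name the same diet (6 per diet) they were 0.30 for miR-421, 0.03 for miR-374a, 0.08 for miR-374b, 0.61 for miR-545-5p and 0.66 for miR-545-3p. The interval of each spanned 0, with -0.07 to 1.28 for miR-545-5p and -0.07 to 1.38 for miR-545-3p. These 12 libraries include Moderate replicate 5, and without it miR-374a stood at 0.18, miR-545-5p at 0.34 and miR-545-3p at 0.34. In the 18 libraries whose labels disagree, grouped by the characteristic, the differences were 0.17, 0.14, 0.06, 0.29 and 0.25 in the same order. Grouped by the titles, all 30 libraries gave 0.01 for miR-421, -0.07 for miR-374a, 0.00 for miR-374b, 0.07 for miR-545-5p and 0.11 for miR-545-3p. No member passed in any of these 4 comparisons, in each of which limma called 0 of the tested miRNAs (0% called), against 43, 69, 58 and 11 at an unadjusted p under 0.05.

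**Figure D2:**
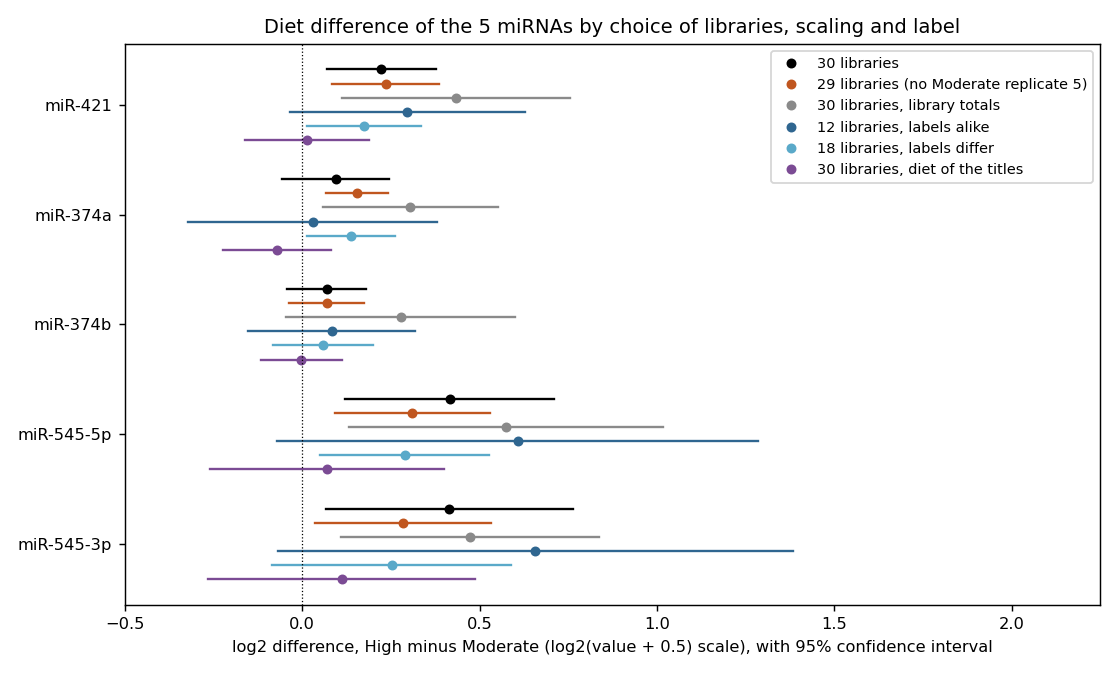
Log2 difference of each miRNA, High minus Moderate, with its 95% confidence interval from limma, in 30 libraries, without Moderate replicate 5, with library totals in place of TMM scaling, in the 12 libraries with the same diet in both labels, in the 18 with different diets, and with the diet of the titles. miR-545-5p and miR-545-3p have the largest differences of the 5 in the 30 libraries (0.42 and 0.41) and the widest intervals. Every interval spans 0 with the titles, and likewise in the 12 libraries with the same diet in both labels.

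Ratios between members within a library do not depend on how libraries are scaled. miR-545 gave more 5p than 3p reads in all 30 libraries (4 and 0 reads in Moderate replicate 5). In the other 29 the ratio was 2.56 to 9.20 with a median of 4.55. The summed reads gave 4.27 under High (1452 and 340 reads) and 4.63 under Moderate without replicate 5 (939 and 203). The mean log2 ratio was 2.19 under High and 2.23 under Moderate, a difference of -0.04 with a standard error of 0.19. Single libraries varied with an SD of 0.51 in either diet.

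Between hairpins, miR-374a exceeded miR-374b by 1.26 to 1.99 times outside Moderate replicate 5. The medians were 1.78 under High and 1.68 under Moderate without replicate 5. The mean log2 ratio differed between these diets, High minus Moderate, by 0.09 (standard error 0.05). miR-421 exceeded its neighbour miR-374b by 2.81 to 3.88 times under High and by 2.23 to 4.56 times under Moderate. Its mean log2 ratio to miR-374b differed between the diets by 0.17 (0.08). miR-374a exceeded miR-545-5p, from the hairpin beside it, by 7.90 to 17.8 times. The mean log2 ratio of these 2 differed between the diets by -0.18 (0.11), so it was lower under High. In Moderate replicate 5 the ratio of miR-374a to miR-374b was 3.10 and that of miR-374a to miR-545-5p was 83.0, both outside the range of the other 29 libraries. Its ratio of miR-421 to miR-374b, at 3.38, lay inside that range. The composition of the cluster in this library therefore differed from the rest for the miR-374a and miR-545 hairpins whatever the scaling.

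**Figure D3:**
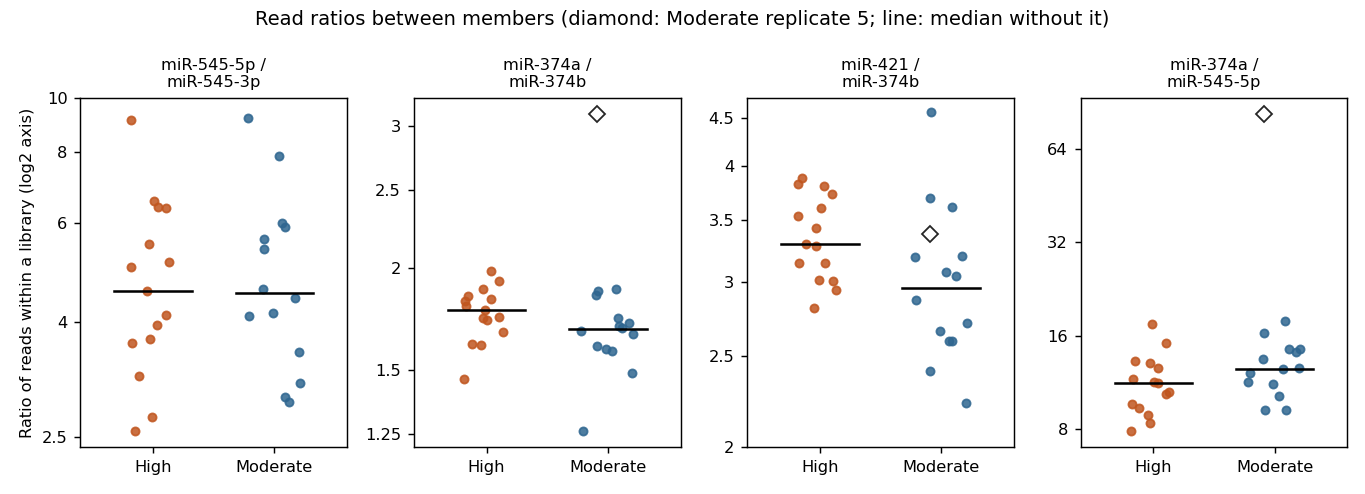
Ratio of reads within each library (log2 axis) for the arms of miR-545, for miR-374a over miR-374b, for miR-421 over miR-374b and for miR-374a over miR-545-5p, with 1 point per calf, the median of each diet without Moderate replicate 5 as a line, and that library as an open diamond (it has no 3p reads of miR-545). The diamond stands at 3.10 and 83.0 in the panels with miR-374a, above all other points, and at 3.38 among the others for miR-421 over miR-374b.

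Over the libraries of both diets the members covaried weakly. Over the 30 libraries Spearman's rho of the 10 pairs lay between 0.11 (miR-421 and miR-545-3p) and 0.53 (miR-421 and miR-545-5p), with a median of 0.33, while the median over all pairs of tested miRNAs was 0.01. Without Moderate replicate 5 the pairs lay between 0.16 and 0.60 with a median of 0.36, and Pearson's r on log2 values between 0.21 and 0.65 with a median of 0.39. These values pool the diets. Each member had a higher mean under High, and the part of this diet difference in the pooled rho was not tested. Within the 15 High libraries the median rho of the members was 0.41, and that of all tested pairs was 0.00. Within the 14 Moderate libraries without replicate 5 the members had 0.04 and all tested pairs 0.00. All values of a library also share its scaling. Relative to the median tested miRNA of the same library the median rho was 0.38, and with library totals 0.62, where the median of all pairs was 0.21.

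By the estimates alone, the rho of the pairs did not follow the order of the genes. The intervals overlapped, and no ranking of the pairs was tested. Without Moderate replicate 5, the neighbours miR-374a and miR-545-5p had a rho of 0.36 (95% interval -0.04 to 0.65). For the neighbours miR-374b and miR-421 it was 0.34 (-0.05 to 0.64). miR-421 and miR-545-5p, from different hairpin pairs, had 0.60 (0.28 to 0.80), and the seed sharers miR-374a and miR-374b had 0.43 (0.05 to 0.70). The arms of miR-545, cut from 1 precursor, had a rho of 0.28 (-0.12 to 0.60). The 31 other pairs of arms from 1 precursor had a median of 0.38 and a range from -0.37 to 0.93. Counting error made up 77.9% of the log2 variance of miR-545-3p within diets and 31.8% of that of miR-545-5p. Such error can lower a rho, but its part in the rho of these arms and of the other pairs with miR-545-3p was not tested. Those other pairs had a rho of 0.40 with miR-374a, 0.23 with miR-374b and 0.16 with miR-421. Among the 7 tested miRNAs of the X-linked cluster of miR-424, miR-503, miR-542 and miR-450 the median rho of the pairs was 0.16, and among the 6 of the X-linked cluster of miR-188, miR-362, miR-500, miR-532 and miR-660 it was 0.36. The differences between these medians were not tested.

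The 2 diets gave different values. The median rho of the 10 pairs was 0.41 in the 15 High libraries, 0.01 in the 15 Moderate libraries and 0.04 in the 14 without replicate 5, and the difference was not tested. In the High libraries miR-374b and miR-545-5p reached 0.80, where the Moderate libraries without replicate 5 gave -0.20. For miR-421 and miR-545-5p the values were 0.46 and 0.49. High replicate 13 was the highest of the 29 libraries for miR-421, miR-374a, miR-374b and miR-545-5p, and the third highest for miR-545-3p. With this library also left out the median rho was 0.28 over 28 libraries and 0.30 over 14 High libraries. Over the libraries whose labels name the same diet the median was 0.39 (11 libraries) and over those with different diets 0.34 (18 libraries).

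**Figure D4:**
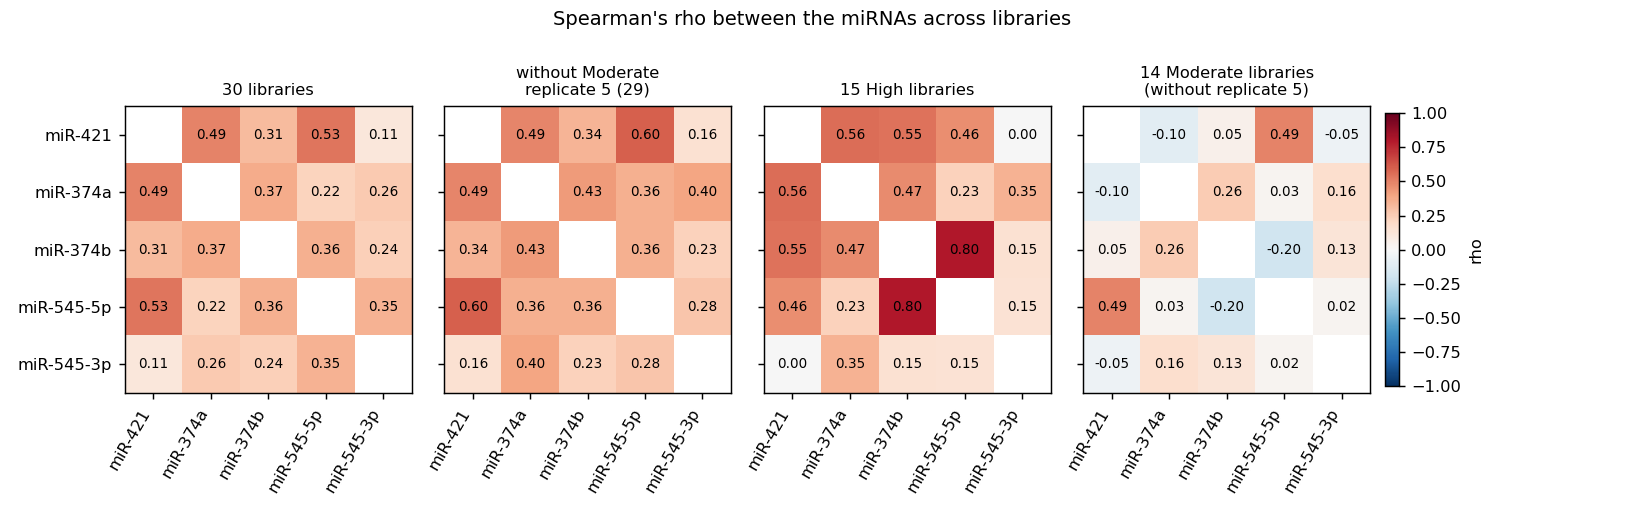
Spearman's rho between each pair of the 5 miRNAs (colour scale from -1 to 1) across 30 libraries, across 29 without Moderate replicate 5, across the 15 High libraries and across the 14 Moderate libraries without replicate 5. The pairs lie between 0.11 and 0.53 in the 30 libraries, and in the Moderate libraries miR-421 and miR-545-5p, at 0.49, is the pair with the highest rho.

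For each member the highest rho was with an miRNA outside the cluster. Members were few among the 386 others of each, so nothing is read from that about their covariation. By rho over 30 libraries among 386 others, the nearest to miR-421 were miR-744 (0.80), miR-2285q (0.75) and miR-22-3p (0.74), and its best member, miR-545-5p, came at place 21. Nearest to miR-545-5p were miR-542-5p (0.70), of the X-linked miR-424 cluster, miR-103 (0.69) and miR-22-3p (0.66), with miR-421 at place 17. Nearest to miR-374b were miR-193b (0.68), miR-193a-3p (0.65) and miR-103 (0.58), with miR-374a at place 25. Nearest to miR-374a were miR-146b (0.65), miR-6522 (0.64) and miR-191 (0.64), with miR-421 at place 8. Nearest to miR-545-3p were miR-15b (0.55) and miR-16b (0.55), which share a seed, and miR-105a (0.51), with miR-545-5p at place 25. Without Moderate replicate 5, miR-744 (0.82) and miR-193b (0.69) were still the nearest to miR-421 and miR-374b. The first-named neighbours of the others moved to place 3 for miR-374a, place 2 for miR-545-5p and place 2 for miR-545-3p. The best member of miR-374a, still miR-421, fell from place 8 to 24. For miR-545-3p the best member became miR-374a, at place 12 from 61. The best members of miR-421, miR-545-5p and miR-374b stayed the same, at places 17, 9 and 18. Of the neighbours named miR-22-3p alone passed the diet test in 30 libraries, at a log2 difference of 0.30.

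Depth and the miR-10b share were weakly related to the members. Over the 29 libraries rho with depth lay between -0.31 (miR-374b) and 0.22 (miR-545-3p), and rho with the miR-10b share between -0.26 (miR-374a) and -0.06 (miR-545-5p). The miR-10b share itself was 42.2% ± 2.87 under High and 44.3% ± 3.14 in the 14 other Moderate libraries, and its part in the diet differences was not tested. In the 24 libraries under 12 M reads the log2 differences were 0.29 for miR-421, 0.07 for miR-374a, 0.05 for miR-374b, 0.48 for miR-545-5p and 0.42 for miR-545-3p. The male germ cell markers miR-34b, miR-34c and miR-449a summed to a median of 114 under High (89.3 to 265) and 75.2 under Moderate (21.9 to 185). Of the 3, miR-34b and miR-34c passed and were higher under High, in 30 libraries (4.91% called over all tested) and in 29 (11.7% called), and miR-449a stood at a log2 difference of 0.02 in 30. The red blood cell sum of miR-144, miR-451 and miR-486 had a median of 1284 under High (887 to 3606) and 1062 under Moderate (755 to 7927, the highest being Moderate replicate 5), with 0 of 3 past the test. The part of these cell types in the members' levels was not tested.

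Other miRNA genes of the X chromosome were compared as a list. Of a list of 38 X-linked miRNAs in the table, without the 5 members, 32 were tested and had their gene on the X chromosome in RefSeq. Of all tested miRNAs 49 had their genes on the X chromosome only, so the list is partial. In limma 0 of 32 passed in either direction in 30 libraries (4.91% called over all tested) and 0 of 32 without Moderate replicate 5 (11.7% called). Their median log2 difference was 0.02 in 30 libraries, with 18 of 32 above 0, and -0.02 in 29, with 14 of 32 above 0. The range in 30 libraries was -0.40 for the myeloid miRNA miR-223 to 0.48 for miR-507b, both named after their values were seen. Whether the cluster differs from the other X-linked miRNAs was not tested.

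**Figure D5:**
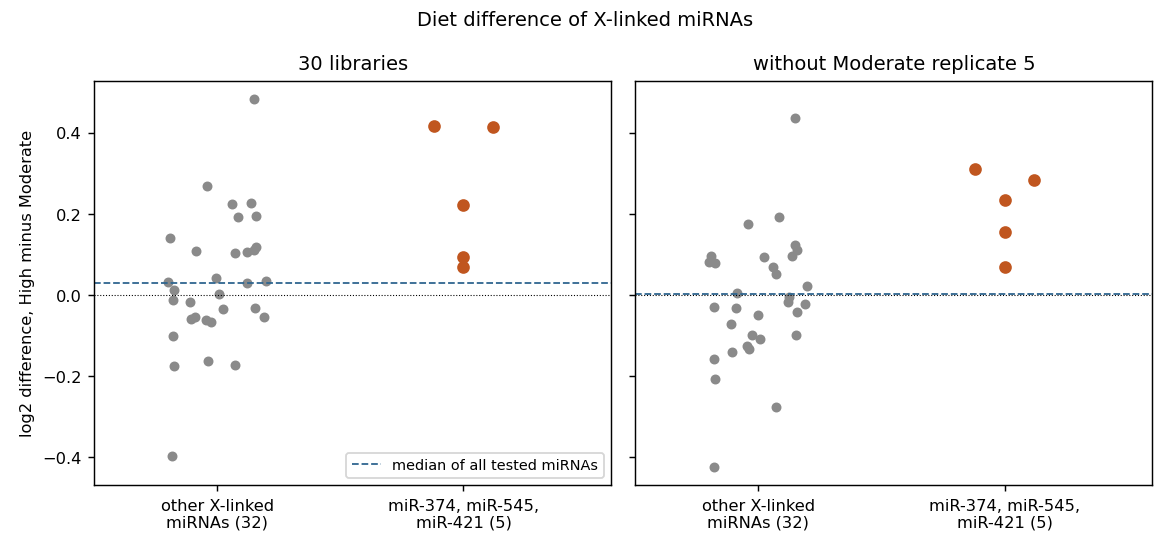
Log2 difference, High minus Moderate, of 32 other X-linked miRNAs (a partial list) and of the 5 members, 1 point per miRNA, in 30 libraries and without Moderate replicate 5, with the median of all tested miRNAs as a dashed line. The 5 members lie between 0.07 and 0.42 in 30 libraries, and the other X-linked miRNAs between -0.40 and 0.48 around a median of 0.02.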

How the data were processed

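Small RNA of 30 calf testes was sequenced, 1 library per calf, made with Illumina's TruSeq small RNA reagents per the labels' protocols. Per the submitters' processing notes the tools included edgeR 3.5, R 3.4, cutadapt 2.6 and FastQC 0.11.8. No source used here gives the aligner, miRNA reference or genome build, so no coordinates are printed. The values the authors deposited are a normalized signal, TMM-scaled CPM, as worked out from the values: dividing by what 1 read is worth in each library gave whole reads for 95.3% of 18379 values above 0 (tolerance 0.02 read) and for all 150 values of the 5 members. All 30 columns were used.

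The whole table was fitted with limma 3.58.1 (R 4.3.3, mean-variance trend) on log2(value + 0.5) for 387 miRNAs that reached 1 in 15 or more libraries, diet as the only term, two-sided, Benjamini-Hochberg adjusted at 0.05. Alternatives, among them edgeR 4.0.16 and DESeq2 1.42.0 on the recovered reads, are in the closing section. The fit was also run on simulated data with the same spread for all miRNAs and no library like Moderate replicate 5. That simulation therefore does not cover the effect of such a library. The log2 scale with a pseudocount understates differences of low miRNAs. Named miRNAs are the members, their 3 nearest by Spearman's rho, and X-linked miRNAs by a list. miRNAs sharing a member's seed were not looked up, since mature sequences were not used here. The members and lists were chosen with earlier results of these data known. Replicate numbers are names only. Intervals cover the spread between calves, and reads carry no molecular identifiers.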

Additional observations from a re-analysis of the deposited data

How the results depend on the processing

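The number of miRNAs past the threshold, 19 in the 30 libraries, was 0 with library totals, 0 with no filter on low values, 3 in the libraries under 12 M reads, 0 in the 12 libraries with the same diet in both labels (0 without Moderate replicate 5), 0 in the 18 with different diets and 0 with the diet of the titles. It was 36 in edgeR and 50 in DESeq2 on the recovered reads, and, with Moderate replicate 5 left out, 31 with library totals and 48 in edgeR. Leaving out each library in turn gave 0 (without High replicate 5) to 45 (without Moderate replicate 5), and also 12 or fewer without each of High replicates 1, 4, 8, 10, 13 and 14 and Moderate replicates 1, 2, 4, 6, 8 and 13. The differences of the members kept their direction in all settings run except with the titles, where miR-374a stood at -0.070 and miR-374b at 0.00 (-0.0019). With each library left out in turn the differences were 0.19 to 0.25 for miR-421 (past the threshold in 2 of 30 fits, without Moderate replicate 5 and without Moderate replicate 9), 0.076 to 0.15 for miR-374a (past it in 1, without Moderate replicate 5), 0.05 to 0.08 for miR-374b, 0.31 to 0.46 for miR-545-5p and 0.28 to 0.47 for miR-545-3p. With Moderate replicate 5 left out, library totals put 3 members past the threshold, miR-421 (0.31), miR-374a (0.23) and miR-545-5p (0.38), and so did edgeR (0.24, 0.16 and 0.34). In 30 libraries miR-545-5p also passed with upper-quartile scaling (0.42) and in DESeq2 (0.37). Library totals shifted the median of all tested miRNAs to 0.21, against 0.03, and the members in 30 libraries to 0.43 for miR-421, 0.31 for miR-374a, 0.28 for miR-374b, 0.57 for miR-545-5p and 0.47 for miR-545-3p. A pseudocount of 2 gave 0.22 for miR-545-3p, against 0.41. The fits on the 18 libraries, and those combining a scaling, a tool or the shared labels with Moderate replicate 5 left out, were chosen after seeing the data. The cause of these changes was not tested.

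Of the correlations, miR-374a with miR-545-5p and with miR-545-3p had a Pearson r of -0.34 and -0.43 over 30 libraries, against a rho of 0.22 and 0.26, and an r of 0.46 and 0.34 without Moderate replicate 5. The r of the miR-545 arms was 0.65 in 30 libraries and 0.27 without it. With library totals rho was 0.72 for miR-374a and miR-374b, 0.62 for miR-374a and miR-545-5p and 0.67 for miR-374b and miR-545-5p. In the Moderate libraries rho was 0.029 for miR-421 and miR-374a (-0.10 without replicate 5). For miR-374b and miR-545-5p, the pair with the widest gap between the diets, it was -0.11 (-0.20 without replicate 5), against 0.80 in the High libraries. No analysis paired within calves was possible, since each calf was fed 1 diet and gave 1 library. Depth limits miR-545-3p most, with 5 to 49 reads in the 29 libraries.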
